A study of Mus musculus with 18 samples.

Results

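Gluconeogenesis makes new glucose in the liver from lactate, alanine and glycerol. The genes described here were 8 of the 19057 rows of a mouse liver expression table, taken by their symbols: Pck1, Pck2, G6pc, Fbp1, Pcx, Slc37a4, Ppargc1a and Creb3l3. Livers of ICR mice sampled at 10 weeks of age were read by RNA sequencing in 6 groups of 3 libraries, 18 in all, each library taken here as 1 mouse. Con mice were controls (regular diet and saline by the study's methods), and AOS mice received alginate oligosaccharide at 10 mg/kg. STZ mice received streptozotocin, a toxin that kills the insulin-producing beta cells of the pancreas and so models type 1 diabetes, and STZ+AOS mice received streptozotocin and AOS at 10 mg/kg. The remaining mice received streptozotocin and a fecal microbiota transplantation by mouth, from donors given AOS at 10 mg/kg (A10-FMT) or from control donors (Con-FMT). By the study's methods the animals were male, streptozotocin was given once at the start, and the donor material was pooled from the small intestine of a donor group, so the transplanted mice of a group shared 1 donor pool. The AOS and STZ+AOS livers are known here from the sample labels alone.

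The pathway runs glycolysis backwards with its own enzymes at the irreversible steps. Pyruvate carboxylase (Pcx) makes oxaloacetate in mitochondria, phosphoenolpyruvate carboxykinase turns it into phosphoenolpyruvate in the cytosol (Pck1) or the mitochondrion (Pck2), fructose-1,6-bisphosphatase (Fbp1) removes a phosphate further up, and glucose-6-phosphatase (G6pc) releases free glucose inside the endoplasmic reticulum, which glucose 6-phosphate enters through the transporter Slc37a4. Glucagon and fasting raise several of these genes through cAMP, the transcription factor CREB and the coactivator PGC-1alpha (Ppargc1a), insulin represses them, and Creb3l3 encodes the liver transcription factor CREB-H.

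All 8 symbols had a position in the GENCODE annotation of GRCm38. Pck1 lay on chromosome 2 (173153048 to 173159273, plus strand), Pck2 on chromosome 14 (55540266 to 55551242, plus), G6pc on chromosome 11 (101367561 to 101377903, plus) and Fbp1 on chromosome 13 (62864753 to 62888282, minus). Pcx lay on chromosome 19 (4510472 to 4621752, plus), Slc37a4 on chromosome 9 (44396852 to 44402968, plus), Ppargc1a on chromosome 5 (51454250 to 51567726, minus) and Creb3l3 on chromosome 10 (81084324 to 81098874, minus). The gene body of Pcx, introns included, shared 3883 bases with Lrfn4 on the other strand, and whether reads were counted by strand was not stated. Whether exons of the pair overlap was not examined, so only reads from the shared stretch could be in doubt.

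Promoters are shown for Pck1 and Ppargc1a, the members with the largest changes after STZ, and for G6pc, whose change did not pass the test. The RefSeq promoter windows of GRCm38.p6 covered all 8 members (12 windows of 300 bases, 50 of them after the start site), and the bases below lie before both the RefSeq and the GENCODE start, 5′ to 3′ on the gene's own strand. Capitals mark matches to TTACGTCA (the Pck1 form of the cAMP response element), TGACG (the core of that element) or TGTTTTG (the core of an insulin response sequence), searched on both strands.
Pck1, chr2:173152823-173153047, plus strand: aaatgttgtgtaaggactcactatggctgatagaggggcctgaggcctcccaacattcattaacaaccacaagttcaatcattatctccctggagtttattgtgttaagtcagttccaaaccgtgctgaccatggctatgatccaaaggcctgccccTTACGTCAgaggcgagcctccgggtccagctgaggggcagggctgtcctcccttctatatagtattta
Ppargc1a, chr5:51567727-51567975, minus strand: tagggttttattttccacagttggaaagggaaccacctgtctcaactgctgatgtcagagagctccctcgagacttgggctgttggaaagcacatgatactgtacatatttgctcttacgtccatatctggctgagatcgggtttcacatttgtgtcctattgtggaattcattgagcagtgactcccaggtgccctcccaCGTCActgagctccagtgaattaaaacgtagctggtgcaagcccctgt
G6pc, chr11:101367466-101367560, plus strand: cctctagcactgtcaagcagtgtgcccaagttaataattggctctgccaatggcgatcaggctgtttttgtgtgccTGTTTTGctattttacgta
TTACGTCA was searched as the Pck1 form of this element, so its match in Pck1 was fixed in advance. It stood from base -93 to base -86 before the RefSeq start of Pck1 and in no window of the other members, 1 of 12 windows. Over all genes it was in 0.499% of 32851 windows. TTACGTCA holds the TGACG core on the opposite strand, so the core's match in Pck1 was fixed as well. This core also occurred in windows of Ppargc1a (-49 to -45), Slc37a4 and Creb3l3. Counting the fixed match in Pck1, it was in 5 of the 12 windows, against 20.8% of all windows. Windows of Slc37a4 overlap and share a site, so the windows are not independent. TGTTTTG occurred in G6pc (-174 to -168), Pck2 and Creb3l3, in 3 of 12 windows, against 6.28%. The full palindrome TGACGTCA (1.79% of windows), the forkhead box O site TGTTTAC (3.65%) and TTGCGCAA, a site form of C/EBP factors (0.183%), were in no member window. TGTTCT, a short site of the glucocorticoid receptor, was found in 1 window of Creb3l3 and in 19.0% of all windows. These are matches of letters, not measured binding.

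The values were RPKM, reads scaled to the transcript length and to all mapped reads of the library, so levels can be set side by side between genes. Changes are on the log2(RPKM + 1) scale and were tested with limma over all genes that reached 1 RPKM in 3 or more libraries, with Benjamini-Hochberg adjusted p-values, and genes whose adjusted p was under 0.05 count as called. All 8 members passed this filter. Pck2 passed it with 6 of 18 libraries at 1 RPKM or more and Ppargc1a with 12, so both entered the test through STZ-treated livers alone. Medians over the members and counts of called or separated members below include them. The steps between low values were closest to whole reads at a depth of 12100000 to 14200000 reads per library, an estimate that the table itself does not state. STZ mouse 3 lay furthest from its own group of all 18 libraries (root mean square log2 deviation of 0.395, against 0.281 and 0.263 for the other STZ mice), and results that turn on it are given with and without it. Of 8 hepatocyte markers 7 were in the table, with summed levels of 39872 to 62817 RPKM in every liver.

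STZ was compared with Con to see how the pathway differed after streptozotocin. Every diabetic liver came from a mouse given the drug, so the drug and the diabetic state cannot be told apart. Pck1, Ppargc1a, Fbp1, Slc37a4 and Pcx rose, 5 of the 8 members and all in the same direction, while G6pc, Pck2 and Creb3l3 did not pass the test. Of those that rose, Ppargc1a had passed the filter through STZ-treated livers alone. Over all 10602 genes tested, 38.5% were called and 33% were called higher. The median log2 change was 1.16 over the members and 0.21 over all genes. In 6 of the 8 members every STZ mouse lay above every Con mouse, a pattern seen in 40.8% of all genes. Median-ratio scaling, which divides a library by the median of its ratios to the geometric mean of the libraries, brought the median of all genes to -0.0097 and called the same 5 members higher, with log2 changes from 0.66 (Pcx) to 2.49 (Pck1).

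**Figure D1:**
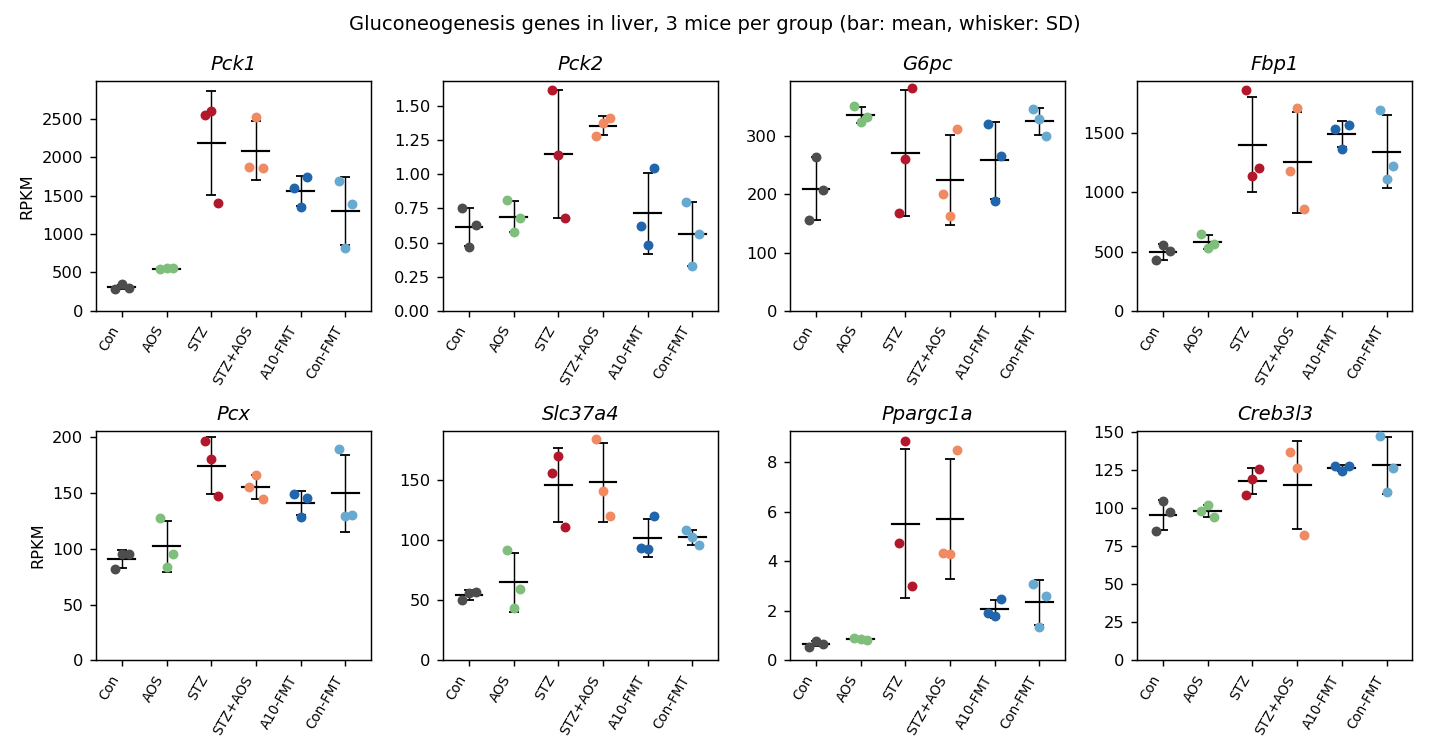
RPKM of the 8 genes in each of the 18 livers, with 6 groups on the x axis, 1 point per mouse, a bar at the mean and a whisker of 1 SD (3 mice per group), and each y axis starting at 0. Pck1, Fbp1, Pcx, Slc37a4 and Ppargc1a were higher in all 12 mice given STZ than in the 6 mice without it, whereas for G6pc 1 of the 12 was above all 6.

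Pck1, the rate-controlling enzyme of the pathway, stood at 287, 342 and 302 RPKM in the Con mice and at 2549, 2603 and 1400 RPKM in the STZ mice. The means were 311 ± 28.6 and 2184 ± 679 RPKM (SD, n = 3), a ratio of 7.03, and the gene moved from rank 271 to rank 42 among all rows by group mean. The log2 change was 2.76 (SE 0.29, limma adjusted p 0.00029). STZ mouse 3 was the lowest of its group and lay within the range of the A10-FMT mice, and without it the log2 change was 3.05.

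Pck2, the mitochondrial form, was present at a very low level. It read 0.75, 0.47 and 0.63 RPKM in Con and 1.62, 1.14 and 0.68 RPKM in STZ. The groups overlapped through STZ mouse 3, and the log2 change of 0.39 (SE 0.18) had an adjusted p of 0.11 by limma. Without STZ mouse 3 it was 0.55 with an adjusted p of 0.024. Pck1 made up 99.7% to 99.96% of the summed RPKM of both carboxykinases in every liver of the 6 groups, so nearly all carboxykinase transcript was of the cytosolic form.

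Fbp1 read 426, 554 and 508 RPKM in Con and 1870, 1139 and 1205 RPKM in STZ. The means of 496 ± 65.3 and 1404 ± 404 RPKM (n = 3) differed by a log2 change of 1.47 (SE 0.22, limma adjusted p 0.00099). No STZ mouse came near the Con range, and mouse 1 was the highest of all 18 livers. Pcx, the mitochondrial entry step, read 81.5, 95.4 and 95.5 RPKM in Con and 196, 180 and 147 RPKM in STZ. Its means of 90.8 ± 8.07 and 175 ± 25.2 RPKM gave a log2 change of 0.93 (SE 0.16, limma adjusted p 0.0021), the smallest of the called members.

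G6pc and Slc37a4 encode the enzyme and the transporter of 1 system, and only Slc37a4 was called. The difference between their changes was not tested in limma. G6pc read 156, 265 and 208 RPKM in Con and 168, 262 and 383 RPKM in STZ. The groups overlapped, with 2 of the 3 STZ mice inside the Con range, and the log2 change of 0.32 (SE 0.29, 95% interval -0.32 to 0.96) had an adjusted p of 0.40 by limma. This interval covers changes in either direction and does not show that G6pc stayed the same. The highest G6pc value was in STZ mouse 3, the mouse with the lowest Pck1 of its group, and without it the log2 change was 0.032. Slc37a4 read 50.1, 56.6 and 57.2 RPKM in Con and 156, 171 and 111 RPKM in STZ. Every STZ liver stood above the highest Con liver, with means of 54.6 ± 3.90 and 146 ± 31.0 RPKM and a log2 change of 1.38 (SE 0.16, limma adjusted p 0.00038).

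Of the regulators, Ppargc1a read 0.56, 0.77 and 0.68 RPKM in Con and 4.72, 8.84 and 2.98 RPKM in STZ. The transcript was scarce in Con and easily read in STZ, with means of 0.67 ± 0.11 and 5.51 ± 3.01 RPKM, a ratio of 8.23. The log2 change was 1.86 (SE 0.28, limma adjusted p 0.0010), which understates the ratio because 1 was added to values near 1, and it was 2.74 with 0.1 added. Creb3l3 read 85.1, 104 and 97.7 RPKM in Con and 109, 120 and 126 RPKM in STZ. All STZ mice stood above all Con mice, but the log2 change of 0.30 (SE 0.12) had an adjusted p of 0.068 by limma, and under median-ratio scaling it was 0.034 (adjusted p 0.83).

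**Figure D2:**
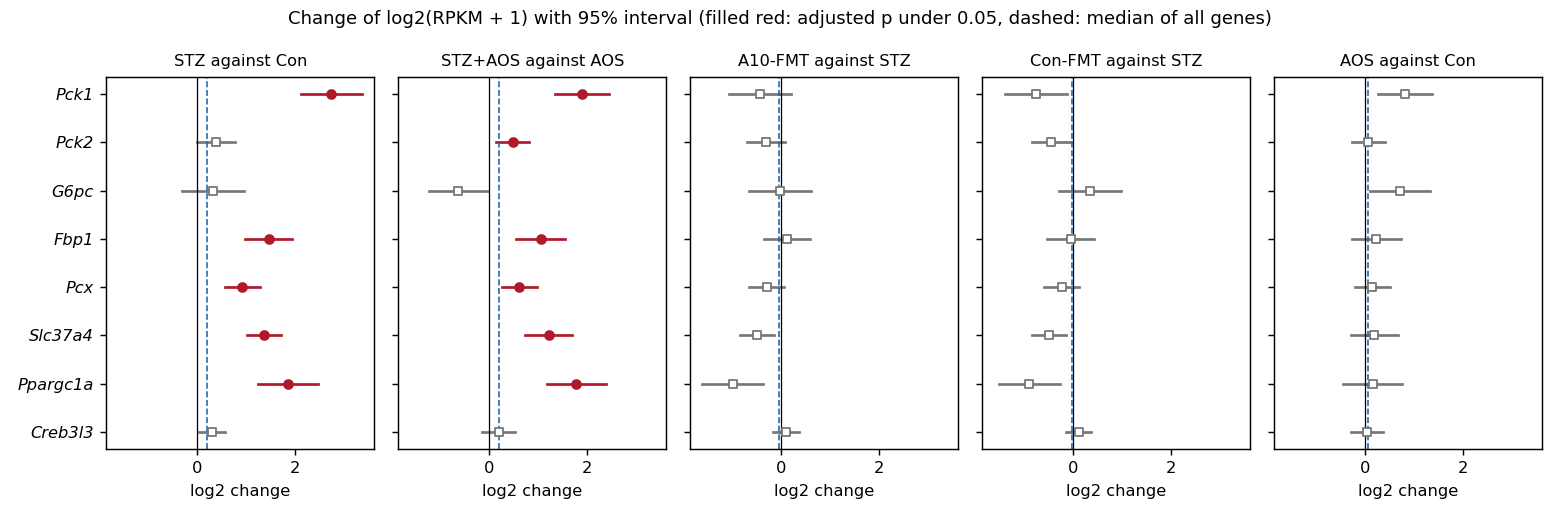
Change of log2(RPKM + 1) (x axis) of the 8 genes with its 95% interval in 5 comparisons. Filled red circles mark an adjusted p under 0.05, open grey squares the rest, and the dashed line the median of all genes, which was 0.21 in STZ against Con. Members were called in STZ against Con (5) and in STZ+AOS against AOS (6) and in none of the other 3 panels.

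The next comparison asked whether transplanted microbiota moved these genes away from their level in STZ. A10-FMT against STZ gave 0 called members by limma, 2 with an unadjusted p under 0.05, and a median log2 change of -0.30 over the members against -0.053 over all genes. Over all genes 0.226% were called. Con-FMT against STZ gave 0 called members as well, 4 with an unadjusted p under 0.05, and a median of -0.34 against -0.029, where 0.00943% of all genes were called. Both comparisons use the same 3 STZ mice.

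Ppargc1a read 1.91, 1.81 and 2.48 RPKM in A10-FMT and 3.07, 1.34 and 2.61 RPKM in Con-FMT. Each A10-FMT mouse was below the lowest STZ mouse, while 1 Con-FMT mouse was just above it. Its log2 change from STZ was -0.99 (SE 0.28, limma adjusted p 0.10) in A10-FMT and -0.90 (SE 0.28, limma adjusted p 0.13) in Con-FMT. Slc37a4 read 93.4, 92.6 and 120 RPKM in A10-FMT and 109, 103 and 96.3 RPKM in Con-FMT. Here the Con-FMT mice were all below STZ and 1 A10-FMT mouse overlapped it, with log2 changes of -0.50 (SE 0.16, limma adjusted p 0.13) and -0.49 (SE 0.16, limma adjusted p 0.14). Ppargc1a was thus the only member with all mice below STZ in A10-FMT and Slc37a4 the only one in Con-FMT, where 13.9% and 9.38% of all genes showed the same separation.

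Pck1 read 1593, 1354 and 1743 RPKM in A10-FMT and 1690, 817 and 1386 RPKM in Con-FMT. These ranges reached into that of STZ through STZ mouse 3, and the log2 changes were -0.43 (SE 0.29, limma adjusted p 0.42) and -0.76 (SE 0.29, limma adjusted p 0.18). Fbp1 read 1539, 1364 and 1572 RPKM in A10-FMT and 1694, 1118 and 1221 RPKM in Con-FMT. Its log2 changes from STZ were 0.12 (95% interval -0.36 to 0.60) and -0.050 (-0.53 to 0.43). G6pc read 321, 189 and 267 RPKM in A10-FMT and 347, 329 and 300 RPKM in Con-FMT, all within the STZ range. For Pcx the A10-FMT mice read 149, 129 and 146 RPKM and the Con-FMT mice 189, 129 and 131 RPKM. Creb3l3 lay at 124 to 128 RPKM in A10-FMT and 111 to 148 RPKM in Con-FMT, and Pck2 at 0.48 to 1.05 and 0.33 to 0.80 RPKM.

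These calls depended on STZ mouse 3. Without it 2 members were called lower in A10-FMT against STZ, Slc37a4 (log2 change -0.68, limma adjusted p 0.010) and Ppargc1a (-1.30, adjusted p 0.011). Con-FMT against STZ then gave 4 members lower, with log2 changes of -1.05 for Pck1 (limma adjusted p 0.022), -0.61 for Pck2 (0.041), -0.67 for Slc37a4 (0.0092) and -1.21 for Ppargc1a (0.013). Leaving out STZ mouse 2, which had the highest Ppargc1a, moved Ppargc1a the other way, to -0.64 (limma adjusted p 0.34) in A10-FMT and -0.55 (0.38) in Con-FMT. Leaving out STZ mouse 3 raised the calls over all genes as well, from 24 to 1343 and from 1 to 1636.

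Set against Con, most of these genes were higher in both transplanted groups. A10-FMT against Con called 5 members, all higher (Pck1, Fbp1, Slc37a4, Pcx and Creb3l3), where 18.4% of all genes were called and 15.9% called higher. Con-FMT against Con called 6, all higher (the same 5 and Ppargc1a), where the shares were 19.4% and 17.5%. Pck1 was 5.03 times its Con mean in A10-FMT and 4.18 times in Con-FMT, with log2 changes of 2.32 (SE 0.29, limma adjusted p 0.0011) and 2.0 (SE 0.29, limma adjusted p 0.0026). Fbp1 was 3.01 and 2.71 times Con, Slc37a4 1.87 and 1.88 times, and Pcx 1.56 and 1.65 times. Ppargc1a was 3.08 and 3.49 times Con, with adjusted p-values of 0.053 and 0.038 by limma, the second of which became 0.067 under median-ratio scaling. Creb3l3 gained calls that were absent in STZ against Con (log2 changes of 0.40 and 0.41, limma adjusted p 0.041 and 0.037), but they were lost under median-ratio scaling (adjusted p 0.21 and 0.26), and its own change from STZ was not called in either group.

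The transplanted groups were also compared with each other. A10-FMT against Con-FMT gave 0 called members and 0% of all genes by limma, with 0 members and 303 genes at an unadjusted p under 0.05. The log2 changes of the members ran from -0.36 (G6pc) to 0.32 (Pck1), and the 95% interval of Pck1 was -0.31 to 0.96.

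The remaining comparisons concern AOS itself. AOS against Con gave 0 called members by limma and 0.00924% of all genes, with 2 members at an unadjusted p under 0.05. Pck1 read 540, 553 and 552 RPKM in AOS, a tight group that lay wholly above Con, at 1.77 times its mean. The log2 change of 0.82 (SE 0.26, 95% interval 0.27 to 1.37) had an adjusted p of 0.54 in the fit of all 18 libraries, and it was called with an adjusted p of 0.017 when only the AOS and Con libraries entered the fit. G6pc read 351, 325 and 333 RPKM in AOS, also above every Con mouse, with a log2 change of 0.71 (SE 0.29, limma adjusted p 0.65). With Ppargc1a (0.91, 0.85 and 0.82 RPKM), 3 of 8 members had all AOS mice above all Con mice, a pattern seen in 19.1% of all genes. Fbp1 lay at 533 to 648 RPKM in AOS, Pcx at 83.7 to 127, Slc37a4 at 43.7 to 91.7, Creb3l3 at 94.2 to 102 and Pck2 at 0.58 to 0.81, each overlapping Con.

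STZ+AOS against STZ gave 0 called members and 0% of all genes by limma, with 0 members and 657 genes at an unadjusted p under 0.05. Pck1 read 1870, 2526 and 1861 RPKM in STZ+AOS, Ppargc1a 4.33, 4.27 and 8.48 RPKM, and Slc37a4 184, 141 and 120 RPKM. Each of these overlapped the STZ values. The log2 changes of the members ran from -0.24 (G6pc) to 0.16 (Pck2), and the 95% interval of Pck1 was -0.58 to 0.52.

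STZ+AOS against AOS showed the response to STZ among mice that all received AOS, in livers not used for STZ against Con. It called 6 of 8 members, all higher, where 37.9% of all genes were called and 31.8% were called higher. Ppargc1a and Pck2 are among the 6, and both had passed the filter through STZ-treated livers alone. The members' median log2 change was 0.84, against 0.21 over all genes. Pck1 rose 3.80-fold by its means, with a log2 change of 1.91 (SE 0.26, limma adjusted p 0.00021). Ppargc1a rose by 1.79 on the log2 scale (SE 0.28, limma adjusted p 0.00048), Slc37a4 by 1.22 (0.23, 0.0012), Fbp1 by 1.06 (0.24, 0.0040), Pcx by 0.62 (0.17, 0.011) and Pck2 by 0.48 (0.16, 0.027). Fbp1 read 1185, 1711 and 864 RPKM in STZ+AOS, Pcx 156, 166 and 144 RPKM, and Pck2 1.28, 1.38 and 1.41 RPKM. None of these overlapped AOS, but the share of all genes separated in either direction between these groups was not counted. Under median-ratio scaling Pcx (adjusted p 0.055) and Pck2 (0.089) lost their calls.

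G6pc went the other way in this pair of groups. It read 201, 163 and 312 RPKM in STZ+AOS, and all 3 mice lay below all AOS mice. The log2 change of -0.63 (SE 0.29) had an adjusted p of 0.094 by limma, and it was called lower under median-ratio scaling (-0.88, adjusted p 0.037). It was also called lower without STZ+AOS mouse 3 (-0.89, adjusted p 0.033). That library stood apart by a list of pancreas and kidney markers, which summed to 65.9 RPKM in it and to 0.07 to 1.79 RPKM in the others. The excess lay in pancreas genes such as Ctrb1 (STZ+AOS mean of 12.2 RPKM). The kidney genes Umod, Slc34a1 and Nphs1 had STZ+AOS means of 0.02, 0.05 and 0.0067 RPKM. The part of these markers in the results for that mouse was not tested. Creb3l3 had a log2 change of 0.20 (adjusted p 0.33) with all libraries, of -0.048 (adjusted p 0.84) under median-ratio scaling, and of 0.42 (adjusted p 0.018, called higher) without that mouse. Pck2 was not called without it (adjusted p 0.064). Creb3l3 read 137, 126 and 82.2 RPKM in STZ+AOS, the lowest value being that of mouse 3. Whether the response to STZ differed with AOS was tested directly in limma, and 0 members and 0% of all genes were called, with 2 members and 584 genes at an unadjusted p under 0.05. Those members were G6pc, with a difference of -0.95 (SE 0.41), and Pck1, with -0.85 (SE 0.37), both at an adjusted p of 0.86.

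Across the 6 groups, Pck1, Fbp1, Pcx, Slc37a4 and Ppargc1a were higher in all 12 mice given STZ, with or without AOS or a transplant, than in all 6 mice not given it, and 10.7% of all genes had this order. Of these members, Ppargc1a had passed the filter through STZ-treated livers alone. The gaps differed in size. The lowest of the 12 and the highest of the 6 were 817 and 553 RPKM for Pck1 and 864 and 648 RPKM for Fbp1, but 129 and 127 RPKM for Pcx and 92.6 and 91.7 RPKM for Slc37a4. Creb3l3 was above all 6 mice in 11 of the 12, Pck2 in 6 and G6pc in 1. By group mean Pck1 ran in the order STZ, STZ+AOS, A10-FMT, Con-FMT, AOS and Con. STZ overlapped with STZ+AOS and, through mouse 3 (1400 RPKM), with A10-FMT and Con-FMT, and A10-FMT overlapped with Con-FMT. The lowest STZ+AOS mouse (1861 RPKM) was above the highest A10-FMT mouse (1743 RPKM), and Con-FMT, AOS and Con did not overlap, but no test was made of these gaps beyond the comparisons above.

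Ratios within a liver do not depend on the scaling between libraries, and that of Pck1 to G6pc set the mice given STZ apart. Pck1 RPKM divided by G6pc RPKM was 1.84, 1.29 and 1.46 in Con and 1.54, 1.70 and 1.66 in AOS. In STZ it was 15.2, 9.94 and 3.65, and in STZ+AOS 9.30, 15.5 and 5.97. The A10-FMT mice had 4.97, 7.16 and 6.53 and the Con-FMT mice 4.87, 2.48 and 4.62, so every mouse given STZ had a higher ratio than every mouse without it. Slc37a4 divided by G6pc was 0.32, 0.21 and 0.28 in Con and 0.93, 0.65 and 0.29 in STZ, where mouse 3 fell back into the Con range. It was 0.29, 0.49 and 0.45 in A10-FMT and 0.31, 0.31 and 0.32 in Con-FMT, so both overlapped Con. In AOS it was 0.26, 0.13 and 0.18 and in STZ+AOS 0.92, 0.87 and 0.38, without overlap. Pck1 divided by Fbp1 separated the groups in more steps, with means of 0.63 ± 0.041 in Con, 0.95 ± 0.11 in AOS, 1.05 ± 0.058 in A10-FMT, 0.95 ± 0.21 in Con-FMT, 1.60 ± 0.60 in STZ and 1.74 ± 0.37 in STZ+AOS (SD, n = 3). Pck1 was thus below Fbp1 in every Con liver and above it in every STZ and STZ+AOS liver. No p is given for these ratios, because an exact permutation test of 3 against 3 mice cannot go below 0.1.

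**Figure D3:**
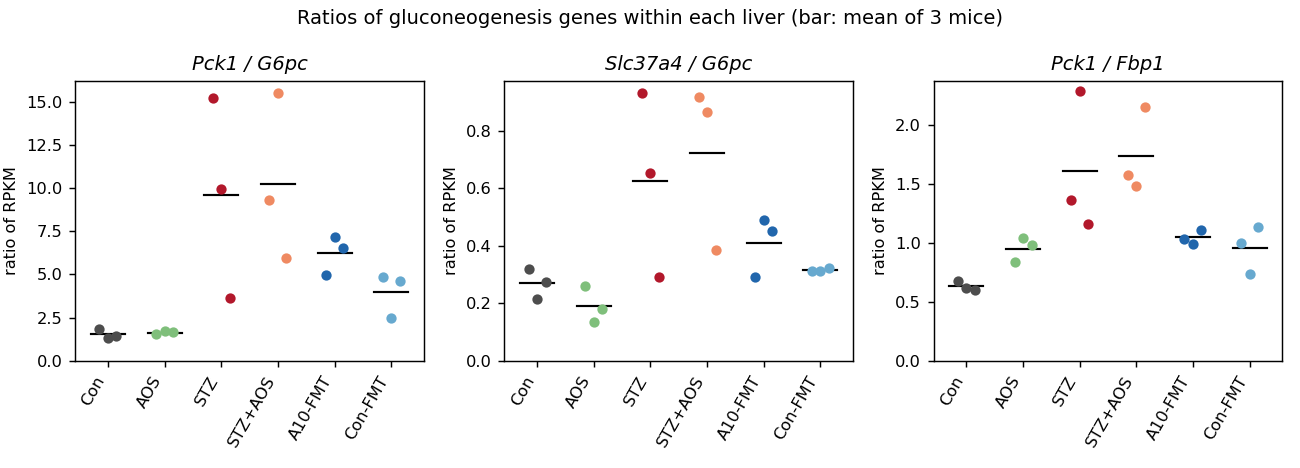
Ratio of RPKM within each liver (y axes, from 0) for Pck1 to G6pc, Slc37a4 to G6pc and Pck1 to Fbp1, with 1 point per mouse, 6 groups on the x axis and a bar at the mean of 3 mice. Pck1 to G6pc lay between 1.29 and 1.84 in Con and AOS and between 2.48 and 15.5 in the 4 groups given STZ.

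The members also differed in how alike their profiles were over the 18 livers. Likeness was measured as the root mean square difference of log2(RPKM + 1), each gene centred on its own mean. The closest pair was Pcx and Slc37a4 (0.28) and the furthest Pck1 and G6pc (1.15), and Pck1 was closest to Ppargc1a (0.51). Genes of smaller range are closer by construction, and all genes share the same libraries. Among all 10822 genes of the 18-library fit, the nearest to Pck1 were Nr1d2, a nuclear receptor of the circadian clock (0.30), Sorbs3 (0.30) and Slc16a7, a monocarboxylate transporter (0.30). Fbp1 was nearest to Etnk2 (0.11), Slc2a5, a fructose transporter (0.16), and Tmem266 (0.17). Kng2 was among the 3 genes nearest to Slc37a4 (0.20), and Ppargc1a was nearest to Pnpla2, a triglyceride lipase (0.18), Sgk1 (0.23) and Abca6 (0.23). For Pcx the nearest were Slc27a5 and Atp5a1 (0.13 each), for Pck2 Sh3bp1, Zfp653 and Heg1 (0.097 to 0.14) and for Creb3l3 Mtfr1l, Ap1s1 and Kcnn1 (0.099 to 0.11).

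The other genes of the pathway were read from 6 lists of 79 genes, of which 74 were tested. In STZ against Con 46 were called higher and 1 lower, where 33% of all genes were called higher, with a median log2 change of 0.62, against 0.21 over all genes. Of the shared reversible steps all 7 genes rose, with log2 changes from 0.67 for triose phosphate isomerase (Tpi1) to 1.41 for enolase (Eno1) among the 6 named by rule. Of the 10 tested genes that bring in lactate, alanine, pyruvate or glycerol 7 rose, led by serine dehydratase (Sds, 1.68, SE 0.24, limma adjusted p 0.00085), and among them the mitochondrial pyruvate carrier (Mpc1, 1.16, and Mpc2, 0.99), alanine aminotransferase (Gpt, 0.95) and the glycerol channel Aqp9 (0.78). Of 9 genes listed for moving oxaloacetate out of mitochondria as malate or aspartate 8 rose. The list also holds the citrate carrier Slc25a1, which did not pass the test (means of 125 RPKM in Con and 99.8 RPKM in STZ). Cytosolic aspartate aminotransferase, Got1, read 33.6, 51.8 and 44.8 RPKM in Con and 321, 318 and 245 RPKM in STZ. Its log2 change of 2.75 (SE 0.26, limma adjusted p 0.00019) was almost that of Pck1.

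Of 28 tested genes of hormone signalling and transcriptional control 14 rose and 14 did not pass the test, beside 33% of all genes called higher. The insulin receptor substrate Irs2 rose by 1.55 on the log2 scale (SE 0.20, limma adjusted p 0.00057), the kinase Sik1 by 1.57, the transcription factor Klf15 by 1.37, the nuclear receptors Esrra and Hnf4a by 0.89 and 0.75, and Foxo3, a target of insulin signalling, by 0.90. The glucagon receptor Gcgr had a log2 change of -0.030 (limma adjusted p 0.88). Of 9 tested genes linked to Creb3l3 or Ppargc1a 4 rose, a share near that of all genes, namely Apoa4 (1.65), Apoc2 (0.91), Tfam (0.47) and Nrf1 (0.33), and Fgf21, a hormone gene regulated by CREB-H, had -0.22 (limma adjusted p 0.56). The related and opposing list had 6 genes higher and 1 lower of 11 tested. The glucose transporter Slc2a2 rose by 1.51 and G6pc3, the widely expressed relative of G6pc, by 0.58.

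No gene of the 6 lists was called by limma in A10-FMT or Con-FMT against STZ, with medians of -0.19 and -0.13 against -0.053 and -0.029 over all genes. Irs2 came to 5.5, 3.31 and 5.06 RPKM in A10-FMT and 4.74, 3.12 and 3.49 RPKM in Con-FMT, after 7.71, 11.2 and 6.62 RPKM in STZ. All transplanted mice were below all STZ mice, with log2 changes of -0.75 (SE 0.20, limma adjusted p 0.092) and -0.98 (SE 0.20, limma adjusted p 0.072). The same separation from STZ was seen in 13.9% of all genes for A10-FMT and 9.38% for Con-FMT. In STZ+AOS against AOS 40 of the 74 genes were called higher and 4 lower, where 31.8% of all genes were called higher, with a median of 0.46 against 0.21 over all genes. Got1 (2.65) and Sds (1.91) were again called higher, while Fgf21 was called lower there (-0.87, limma adjusted p 0.015). Fgf21 means were low, at 2.43 RPKM in AOS and 0.89 RPKM in STZ+AOS, beside 0.92 RPKM in Con.

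**Figure D4:**
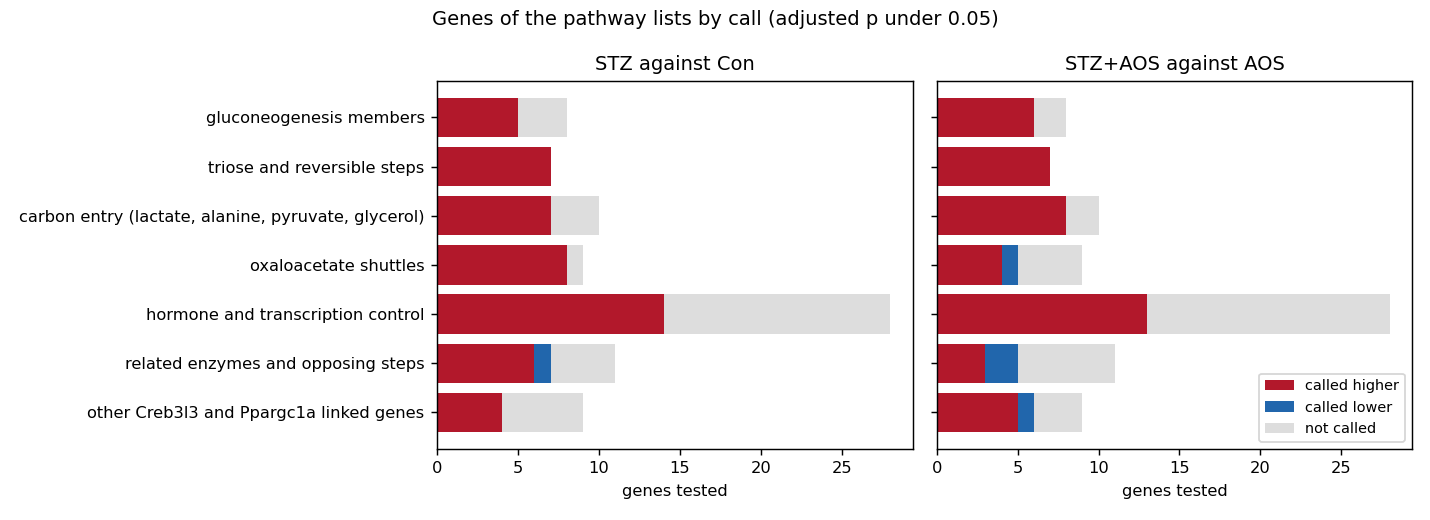
Number of tested genes (x axis) called higher (red), lower (blue) or not called (grey) by limma at an adjusted p under 0.05, for the 8 members and 6 further lists, in STZ against Con and in STZ+AOS against AOS. All 7 genes of the reversible steps were called higher in both, and 8 and 4 of the 9 oxaloacetate shuttle genes.

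Gluconeogenesis genes are denser in hepatocytes around the portal vein, and other markers of those cells were read too. Of 11 periportal markers 9 were called higher in STZ against Con, beside 33% of all genes, and 2 lower, beside 585 of 10602 genes. Those called lower were Cyp2f2 (means of 1417 RPKM in Con and 816 RPKM in STZ) and Cdh1 (17.5 and 12.8 RPKM). The summed level of the 11 markers was 4353 to 5733 RPKM in Con and 8200 to 9488 RPKM in STZ. Sds belongs to this list as well as to the carbon entry list. In bulk liver, more cells of a type and more RNA per cell cannot be told apart, and the part of the periportal markers in the members' changes was not tested. Of 7 hepatocyte markers 3 were called lower, beside the same 585 of 10602 genes. Summed levels of Kupffer cell and macrophage markers were 62.8 to 94.5 RPKM in Con and 93.8 to 206 RPKM in STZ (1 of 7 called, higher), those of stellate cells and fibroblasts 72.3 to 83.7 and 108 to 132 RPKM (1 of 6, higher), and those of endothelial cells 39.4 to 45.1 and 42.9 to 55.9 RPKM (2 of 6, higher). Cholangiocyte markers summed to 20.1 to 41.3 RPKM and those of lymphocytes and neutrophils to 1.79 to 18.2 RPKM over all 18 livers, with 1 gene of each called lower. Pck1 is also expressed in fat, where adipocyte markers would mark its cells. These summed to 0.29 to 0.44 RPKM in Con and 0.84 to 2.40 RPKM in STZ, with 4 of 5 under 1 RPKM in every liver and 1 at 0 in all 18, beside 1400 to 2603 RPKM of Pck1.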

How the data were processed

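The authors isolated liver RNA, enriched it with oligo(dT) beads, sequenced it on an Illumina HiSeq instrument and mapped the reads with SOAPaligner, and they deposited 1 table of RPKM per gene symbol and library, normalized to transcript length and mapped reads. The submitters' processing notes name mm10 and Bowtie 0.12.2 without saying what each was used for. Neither the deposited table nor the labels say whether a library was 1 animal, so p-values measure the spread between these libraries. All 18 columns were mapped to a group by their labels. Read counts were not part of the table, and the depth was estimated from 1066 genes with transcripts of 300 to 1500 bases, where 30.7% to 40.3% of low values lay within 0.1 of a whole read, against 15.9% to 18.8% at the median of the depths tried. RPKM near 1 therefore rest on few reads, and their sampling error was not calculated.

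Genes that reached 1 RPKM in 3 or more libraries were kept, 1 was added and log2 taken, and group means were fitted with limma 3.58.1 (R 4.3.3, lmFit, contrasts.fit, eBayes with trend), with Benjamini-Hochberg adjustment over all genes of a contrast. The 6 contrasts without AOS-treated recipients came from a fit of 12 libraries (10602 genes), those with AOS from all 18 (10822 genes). The procedure was tested on simulated data. Alternatives were median-ratio scaling, a pseudocount of 0.1, no filter, no trend, other sets of libraries, the mouse number as a replicate block and leaving out each mouse. Deviations of mice with the same number correlated positively for every number in A10-FMT against Con-FMT (0.12 to 0.29). This was also so in A10-FMT against Con (0.063 to 0.145) and STZ+AOS against AOS (0.019 to 0.128). Elsewhere the correlations ran from -0.25 (A10-FMT against STZ) to 0.47 (Con-FMT against STZ). The main fit has no block. The members and gene lists were chosen with earlier results of these data known, and no list was tested as a set. Pathway genes named were at most 6 per list, by adjusted p in STZ against Con, and Gcgr, Fgf21 and the marker sums were added after their values were seen. For members called in any contrast the 3 genes nearest in profile were named. A few genes that these rules chose are not reported here. Positions come from GENCODE M21, promoters from RefSeq.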

Additional observations from a re-analysis of the deposited data

How the results depend on the processing

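With 3 libraries a group, 1 library could decide a call. Of 1032 member values under an alternative, 964 were counted as the same, 40 lost a call, 15 gained one and 13 moved without a call. Among the 964, uncalled values moved by less than the residual SD of the gene in the main fit. Called values kept call and direction but could change in size. Ppargc1a in STZ against Con, for example, went from 1.86 to 2.74 with 0.1 in place of 1 added. No called change turned its direction. In STZ against Con 5 or 6 members were called under every alternative. Without STZ replicate 3, A10-FMT against STZ called 2 members and Con-FMT against STZ 4, so that leaving out replicates gave 0 to 2 and 0 to 4. A10-FMT against Con called 3 members with no filter and 3 to 5 when a replicate was left out (3 without A10-FMT mouse 1 or 3 or Con mouse 1 or 3), and Con-FMT against Con 3 to 6 (3 without Con-FMT mouse 1 or Con mouse 1). In STZ+AOS against AOS it was 4 to 7 over all alternatives. AOS against Con called 1 member, Pck1, when only the compared groups were fitted. With the replicate block 4 members were called in each transplanted group against Con (in Con-FMT Creb3l3 and Ppargc1a lost their calls, adjusted p 0.068 and 0.063, and in A10-FMT Creb3l3, 0.074), 5 in STZ against Con, 6 in STZ+AOS against AOS and 0 in the other comparisons. Leaving out a replicate also leaves fewer libraries, and the cause of these shifts was not tested.

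Over all genes, median-ratio scaling gave 2871 calls in STZ against Con (1480 higher and 1391 lower) where the values as deposited gave 4087 (3502 and 585). It gave 77 against 24 calls for A10-FMT against STZ, 73 against 1 for Con-FMT against STZ, 1155 against 1953 for A10-FMT against Con, 866 against 2059 for Con-FMT against Con, 2648 against 4102 for STZ+AOS against AOS and 4 against 1 for AOS against Con. Pck2, and Ppargc1a in mice without STZ, were under 1 RPKM in most libraries, where the sampling error was not calculated.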
